A study of Mus musculus with 47 samples.

Results

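The steroid and xenobiotic receptor genes examined here are 10 genes chosen by name from the 22367 protein-coding genes of the mouse annotation: Esr1, Nr3c1, Nr1i2, Nr1i3, Ppara, Pparg, Rxra, Nr1h3, Ahr and Thrb. ChIP-seq for 3 histone marks had been carried out on whole liver of mice of both sexes at 7 weeks of age. Control mice carried floxed Ezh2 (Ezh2 f/f). E1/E2-KO mice carried the same floxed Ezh2 together with Ezh1-/- and an Alb-Cre transgene, so that Ezh1 was missing from every cell and Ezh2 from hepatocytes, the cells in which the albumin promoter is active, whereas other liver cells kept Ezh2. Each of the 4 sex and genotype groups had 4 livers per mark, except H3K4me1 in E1/E2-KO female liver, for which the sample records give 3. Reads of the livers of a group were pooled before peaks were called, which leaves 1 list per group and mark, 12 in all. Replicate error is therefore unknown for every value below, and no group difference could be tested. The lists give positions only, with no depth or strength, and a mark missing from a list was not called there, which does not show that it was absent from the DNA.

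Nuclear receptors are transcription factors that bind small molecules. Esr1 encodes the estrogen receptor alpha, Nr3c1 the glucocorticoid receptor and Thrb a thyroid hormone receptor. Nr1i2 (pregnane X receptor) and Nr1i3 (constitutive androstane receptor) respond to drugs and other foreign compounds and switch on the cytochromes P450 that clear them, as does Ahr, the aryl hydrocarbon receptor, which belongs to another protein family. Ppara drives fatty acid oxidation in hepatocytes, Pparg drives fat storage and is low in healthy hepatocytes, and Nr1h3 (liver X receptor alpha) senses oxysterols. Rxra is the partner with which several of these receptors bind DNA as pairs. Of the marks, H3K27me3 is placed by the Polycomb complex that contains Ezh1 or Ezh2 and goes with silent genes, H3K27ac marks active promoters and enhancers, and H3K4me1 marks enhancers whether active or not.

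All 10 genes carried H3K27ac peaks within 10 kb in all 4 groups. A peak lay within 1 kb of the start site of every one of them, except that control male liver had none at Ppara and Rxra. In the order control male, E1/E2-KO male, control female and E1/E2-KO female, which is kept for all sets of 4 values below, 44.8%, 51.8%, 50.8% and 51.4% of all protein-coding genes had such a peak. A peak within 10 kb was found at 60.4%, 69%, 67% and 68.4% of all protein-coding genes. H3K27me3 regions, in contrast, overlapped the span of only 1 of the 10 genes, Pparg, in each control group. In E1/E2-KO liver, from which the enzymes for this mark had been removed in hepatocytes, regions overlapped 6 of the genes in males and 4 in females. Over all protein-coding genes the share with any overlap was 42.4%, 47.1%, 42.6% and 40.8%. The 10 genes were below it in the control lists, above it in E1/E2-KO males and close to it in E1/E2-KO females. Their median span was 74.3 kb, against 15.4 kb over all protein-coding genes, and the part of gene length in this overlap was not tested. Coverage, the percent of the bases of a gene that lie inside regions, is given below for each gene. A change of at least 25 percentage points is counted.

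**Figure D1:**
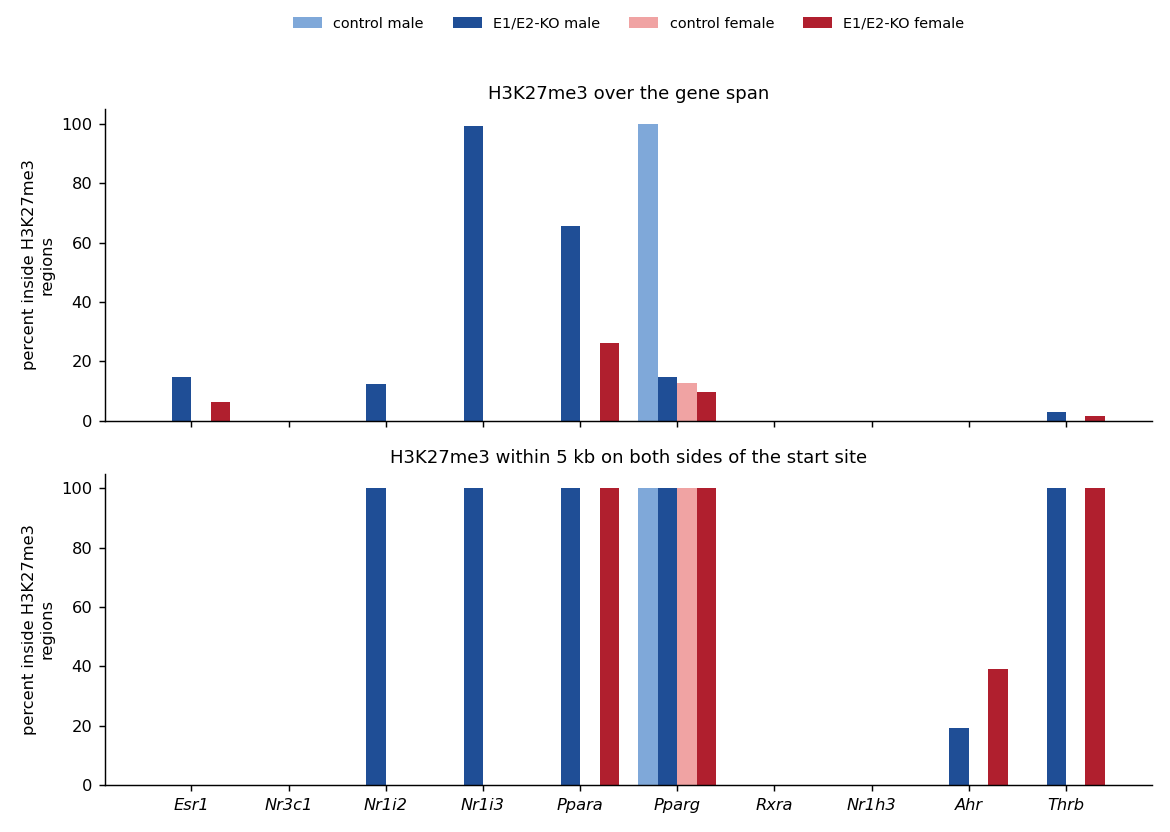
Percent of each gene's span (upper panel) and of the 5 kb on both sides of its start site (lower panel) inside H3K27me3 regions, with 1 bar per pooled list. Pparg is the only gene with bars in the control lists, and the start sites of Nr1i2, Nr1i3, Ppara and Thrb lie inside regions of E1/E2-KO lists only.

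Among the drug-sensing receptors, Nr1i3 was the one whose span gained the most H3K27me3 in percent. The gene, 6.73 kb long on the plus strand (chr1:173144101-173150832), had a coverage of 0%, 99.5%, 0% and 0%. The gain came from a single region of 20 kb in E1/E2-KO male liver (chr1:173130801-173150800), which also overlaps the neighbouring gene Tomm40l. Neither female list nor the control male list had a region there. With the widest 50% of the regions of each list alone, this region was not included and the difference was 0 points. H3K27ac peaks within 10 kb of Nr1i3 numbered 4, 6, 6 and 6. The widest of these sites, 1945 bp from just inside the start of the gene, was present in all 4 lists, and 4 of the 6 peaks of E1/E2-KO male liver lay inside the new H3K27me3 region. That region takes up much of the window, and the overlap to be had from coverage alone was not computed. Of the 6 sites, 4 were found in every list and the other 2 in every list but that of control male liver. Since Apoa2, Fcer1g and Tomm40l lie within the same window, these peaks may not all belong to Nr1i3. Near the start of another gene were 1 or 2 H3K27ac peaks per list.

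Nr1i2 (minus strand, chr16:38248409-38294910) had a coverage of 0%, 12.3%, 0% and 0%. In both control groups a region ended 6691 bp upstream of its start site and overlapped the neighbouring gene 4932425I24Rik, with a width of 34 kb in males and 32.4 kb in females. In E1/E2-KO male liver the region was 54 kb wide and ran across the start site, so that the 5 kb on both sides of it were covered to 100%, whereas E1/E2-KO female liver had no region within 10 kb of the gene. The H3K27ac peak at the start site was called in all 4 groups, and the peaks within 10 kb numbered 5, 6, 4 and 8.

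Ahr (minus strand, chr12:36182646-36219710) was covered to 0% in every list. Both E1/E2-KO lists nevertheless had a region upstream, 22 kb wide and 3091 bp from the start site in males, and 23.2 kb wide and 1091 bp from it in females, where the control lists had none. These regions covered 19.1% and 39.1% of the 5 kb on both sides of the start site. H3K27ac peaks numbered 4, 8, 7 and 7, and the peaks nearest to the start site, at 0.53 kb and 2.19 kb, were in all 4 lists.

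The DNA before the start sites of Nr1i3 and Nr1i2 is shown because these starts lay inside H3K27me3 regions in E1/E2-KO male liver only. The 250 bases end 1 base before the start site, at chr1:173143851-173144100 for Nr1i3 and chr16:38294911-38295160 for Nr1i2, and are written 5′ to 3′ on the strand of the gene from the NCBIM37 genome.
Nr1i3: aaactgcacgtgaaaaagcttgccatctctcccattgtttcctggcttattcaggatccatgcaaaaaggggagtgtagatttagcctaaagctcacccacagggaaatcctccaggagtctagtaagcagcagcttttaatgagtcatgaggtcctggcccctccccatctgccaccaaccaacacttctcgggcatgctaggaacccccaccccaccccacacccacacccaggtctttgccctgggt
Nr1i2: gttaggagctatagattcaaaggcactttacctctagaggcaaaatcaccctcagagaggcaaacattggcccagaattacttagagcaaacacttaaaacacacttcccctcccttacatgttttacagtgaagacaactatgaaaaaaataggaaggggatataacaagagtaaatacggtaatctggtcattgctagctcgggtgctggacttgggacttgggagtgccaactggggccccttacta
Both are poor in CpG, with 2 CpG each, against a median of 8 over the same window of all protein-coding genes. Ratios of observed to expected CpG were 0.12 for Nr1i3 and 0.17 for Nr1i2, and the median over all genes was 0.50.

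Of the lipid sensors, Ppara gained H3K27me3 in both sexes and Pparg lost it in males. Ppara (plus strand, chr15:85565413-85633249) had a coverage of 0%, 65.7%, 0% and 26.3%. In E1/E2-KO male liver a region of 50.8 kb ran across the start site and another of 21.6 kb lay from 41.8 kb downstream of it. The female E1/E2-KO list had a region of 40.8 kb across the start site. H3K27ac peaks were also more numerous in those lists. Within 10 kb they numbered 3, 18, 11 and 13, the fewest in control male liver. Of the 17 sites to which these peaks merge, 3 were in all 4 lists, 7 were in all lists but that of control male liver, 3 were in both E1/E2-KO lists alone, and none was in control male liver alone. The start site of the gene had no peak within 1 kb in control male liver, but the first start of a coding transcript, 0.581 kb further in, had 1. In E1/E2-KO male liver 13 of the 18 H3K27ac peaks lay inside H3K27me3 regions. In females of that genotype 6 of 13 did. Regions covered 65.7% and 26.3% of the gene in these 2 lists, and the overlap to be had from coverage alone was not computed. In pooled whole liver, cells that carry one mark and cells that carry the other cannot be told apart from cells that carry both, nor can a mark on fewer cells from a weaker mark on each. H3K4me1 peaks changed little in number, at 4, 5, 5 and 4. The widest intronic site that was found in both E1/E2-KO H3K27ac lists and no other, 20.02 kb from the start, is shown by its central 300 bases (chr15:85585285-85585584, plus strand), in which none of the motifs searched was found.
Ppara H3K27ac: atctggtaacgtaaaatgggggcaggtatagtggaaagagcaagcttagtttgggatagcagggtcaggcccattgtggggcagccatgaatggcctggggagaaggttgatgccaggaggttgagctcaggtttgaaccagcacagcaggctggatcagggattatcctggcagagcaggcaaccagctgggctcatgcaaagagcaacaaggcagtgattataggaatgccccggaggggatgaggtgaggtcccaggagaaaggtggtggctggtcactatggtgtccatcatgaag

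Pparg (plus strand, chr6:115311239-115440419) had the opposite pattern. Its coverage was 100% in control male liver, where a single region of 238 kb (chr6:115255601-115493600) ran past both ends of the gene, 14.8% in E1/E2-KO males, 12.7% in control females and 9.57% in E1/E2-KO females. The start site was inside a region in all 4 lists, and the 5 kb on both sides of it were covered to 100% in each. What differed was the gene body. In E1/E2-KO male liver the domain was split into a region of 66.8 kb at the start and one of 61.2 kb at the end. In control and E1/E2-KO female liver, regions of 37.2 kb and 30 kb were confined to the start. A second coding start of the gene, 60.8 kb downstream, was therefore inside a region in control male liver alone. By limits set after the values of Pparg had been seen (a span of at least 50 kb, 100% covered in control males and under 25% in both E1/E2-KO males and control females), Ankdd1b was the only other protein-coding gene with this pattern. The base was 314 genes of that length covered to 100% in control males. Of these, Pparg included, 10 were under 25% in E1/E2-KO males and 2 in control females.

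**Figure D2:**
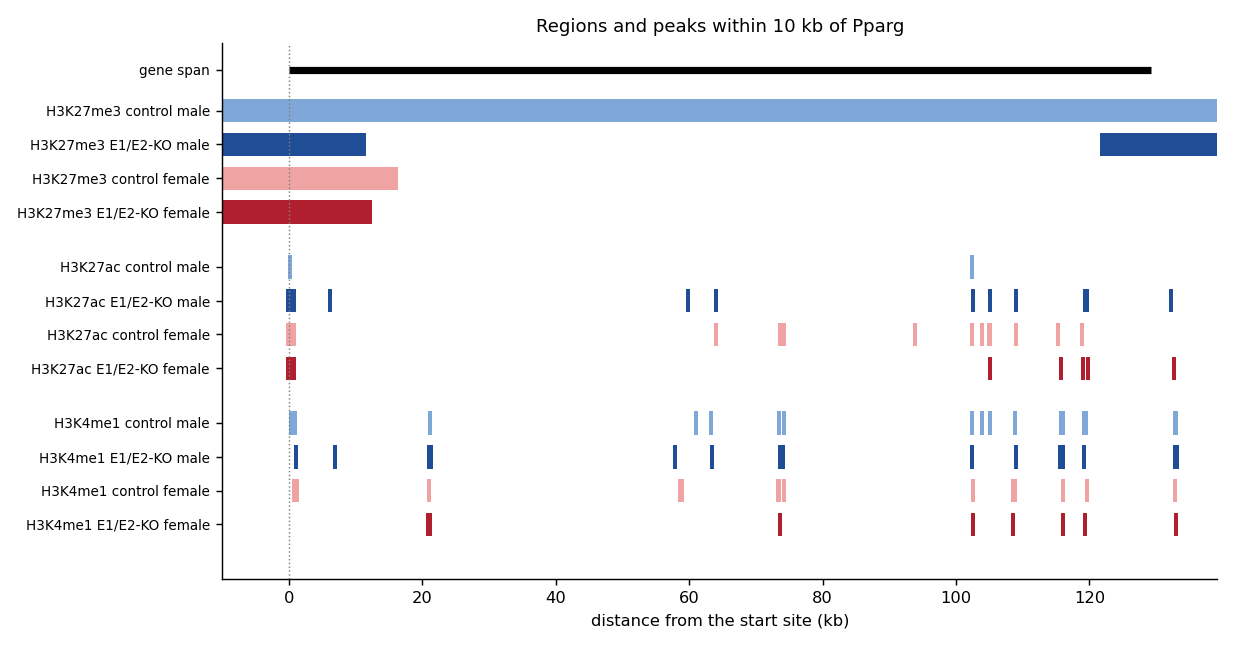
H3K27me3 regions, H3K27ac peaks and H3K4me1 peaks against the distance from the Pparg start site in kb, with 1 row per mark and pooled list (narrow peaks are drawn wider than scale so that they can be seen). The region of control male liver spans the whole window, the other groups each have a region over the start site, E1/E2-KO male liver has another at the end of the gene, and H3K4me1 peaks stand in the gene body in all 4 groups.

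H3K27ac peaks within 10 kb of Pparg numbered 2, 10, 11 and 6. One site, at the start, was in all 4 lists, and 5 sites were in control female liver alone. E1/E2-KO lists had sites of their own too, 3 in males alone and 2 in females alone. H3K4me1 was already present in control male liver under the H3K27me3 domain. Its peaks numbered 15, 11, 10 and 7, and all 15 of those of control male liver lay inside the H3K27me3 region, against 3 of 11 in E1/E2-KO males, 1 of 10 in control females and 0 of 7 in E1/E2-KO females. Since the control male region covered the whole window, every peak there had to lie inside it. The lower counts of the other lists go with their smaller regions. Of the 15 H3K4me1 sites, 7 were shared by all 4 lists. The central 300 bases of an intronic H3K27ac site that was found in every list but that of control male liver (chr6:115416155-115416454, plus strand, 105.07 kb from the start) are shown as an example of acetylation in the gene body where the control male region lay. None of the motifs searched was found in them.
Pparg H3K27ac: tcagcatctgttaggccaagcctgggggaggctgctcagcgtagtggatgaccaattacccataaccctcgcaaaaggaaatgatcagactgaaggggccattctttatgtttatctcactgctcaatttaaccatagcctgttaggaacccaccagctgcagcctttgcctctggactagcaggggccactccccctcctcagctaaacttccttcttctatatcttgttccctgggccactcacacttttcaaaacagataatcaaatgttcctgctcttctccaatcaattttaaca

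Nr1h3 (minus strand, chr2:91024218-91042991) and Rxra (plus strand, chr2:27531960-27618477) were covered to 0% in all 4 lists. At Nr1h3, H3K27ac peaks numbered 4 in every group, and 3 of its 4 sites were shared by all lists, the least change of the 10 genes. That at its first start site also lies over the start of Acp2. Ddb2 and Madd lie within the same window too, and 2, 2, 2 and 3 of the peaks were near the start of another gene. Rxra had 3, 3, 7 and 5 H3K27ac peaks. A site of 2294 bp, 2.27 kb inside the gene, was in all 4 lists, and a narrower one over the start itself was missing from the control male list alone. H3K27me3 stopped short of Rxra on its 3′ side, where regions began after the end of the gene. Those of male liver, 289 kb in controls and 275 kb in E1/E2-KO, overlapped Col5a1, and that of control females, 13.6 kb, overlapped no protein-coding gene.

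Among the hormone receptors, Thrb gained H3K27me3 over its start site in both sexes. Because Thrb is 377 kb long (plus strand, chr14:18493474-18870602), its coverage rose only from 0% to 2.79% in males and from 0% to 1.62% in females, and the change does not reach 25 points. Over the 5 kb on both sides of the start site it was 0%, 100%, 0% and 100%. The regions were 23.2 kb wide in E1/E2-KO male and 16.8 kb in E1/E2-KO female liver. An H3K27ac peak lay at the same start site in all 4 groups, and peaks within 10 kb of the gene numbered 15, 31, 26 and 23. H3K4me1 peaks numbered 36, 26, 24 and 24, the largest number in control male liver.

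The DNA before the start sites of Ppara and Thrb is shown because these were the starts that entered H3K27me3 regions in E1/E2-KO liver of both sexes. It lies at chr15:85565163-85565412 and chr14:18493224-18493473, on the plus strand.
Ppara: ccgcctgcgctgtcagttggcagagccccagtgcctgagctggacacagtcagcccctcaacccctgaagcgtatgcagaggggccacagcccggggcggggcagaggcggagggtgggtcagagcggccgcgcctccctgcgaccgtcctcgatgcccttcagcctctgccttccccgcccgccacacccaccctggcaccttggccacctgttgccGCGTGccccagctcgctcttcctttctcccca
Thrb: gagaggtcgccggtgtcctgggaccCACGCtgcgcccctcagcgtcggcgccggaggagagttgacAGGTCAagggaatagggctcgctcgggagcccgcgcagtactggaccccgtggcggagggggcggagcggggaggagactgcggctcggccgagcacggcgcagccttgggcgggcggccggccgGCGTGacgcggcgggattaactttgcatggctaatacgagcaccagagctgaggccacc
Capitals mark GCGTG, the core of the site of the aryl hydrocarbon receptor, and AGGTCA, the core hexamer bound by many nuclear receptors, read on both strands. A match is a description of the letters only. The 250 bases hold 17 CpG at Ppara and 30 at Thrb, against a median of 8 over all genes. Ratios of observed to expected CpG were 0.57 and 0.97, and the median was 0.50. CpG-poor starts (Nr1i2, Nr1i3) and a CpG-rich one (Thrb) are thus both among those that gained the mark. Ppara was near the median by the ratio. Among the 10 genes, 2 had AGGTCA in this window (Pparg and Thrb), against 12.5% of all protein-coding genes, and 4 had GCGTG, against 32.3%. None of the 10 windows held TTCNNNGAA, the core that STAT factors bind (6.83% of all genes), AGGTCA repeated directly with 1 or 4 spacer bases or inverted with 3, or AGAACA inverted with 3. These 4 repeats were present in 0.0492%, 0.00447%, 0.0134% and 0.00447% of the windows of all genes, in the order named. Their absence from the 10 windows is therefore close to the background.

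Esr1 (minus strand, chr10:5340927-5734948), 394 kb long, had a coverage of 0%, 14.6%, 0% and 6.4%. In E1/E2-KO male liver regions of 42.4 kb and 15.2 kb lay within the gene, away from its first start sites. A region of 25.2 kb in E1/E2-KO females overlapped the larger of them. They held a coding start 98.6 kb downstream but not the first start sites, which had an H3K27ac peak in all 4 groups. H3K27ac peaks of Esr1 numbered 10, 14, 16 and 20, and H3K4me1 peaks 25, 16, 18 and 13. Of its 31 H3K4me1 sites, 6 were shared by all lists, 8 were in control male liver alone and 3 in both male lists alone. Over all H3K4me1 sites of the lists these patterns made up 28.4%, 13.6% and 6.42%. The widest of the 3 sites in both male lists alone, 13.53 kb from the start, is shown by its central 300 bases (chr10:5721273-5721572, minus strand) because it was called in both male lists and in neither female list, with a match to GCGTG in capitals.
Esr1 H3K4me1: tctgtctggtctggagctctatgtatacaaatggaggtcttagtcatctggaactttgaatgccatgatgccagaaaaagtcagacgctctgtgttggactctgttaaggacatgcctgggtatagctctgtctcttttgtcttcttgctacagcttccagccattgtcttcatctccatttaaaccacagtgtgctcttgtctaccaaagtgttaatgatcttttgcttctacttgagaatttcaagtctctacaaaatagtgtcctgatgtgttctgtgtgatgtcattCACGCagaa
Such a match was present in 18.7% of the central 300 bases of all control male H3K4me1 peaks.

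Nr3c1 (minus strand, chr18:39570199-39650955) was covered to 0% in all groups. Its H3K27ac peaks numbered 8, 11, 12 and 10, with 8 of 13 sites in every list and 2 peaks within 1 kb of the start site in each. H3K4me1 peaks numbered 9, 6, 4 and 3.

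**Figure D3:**
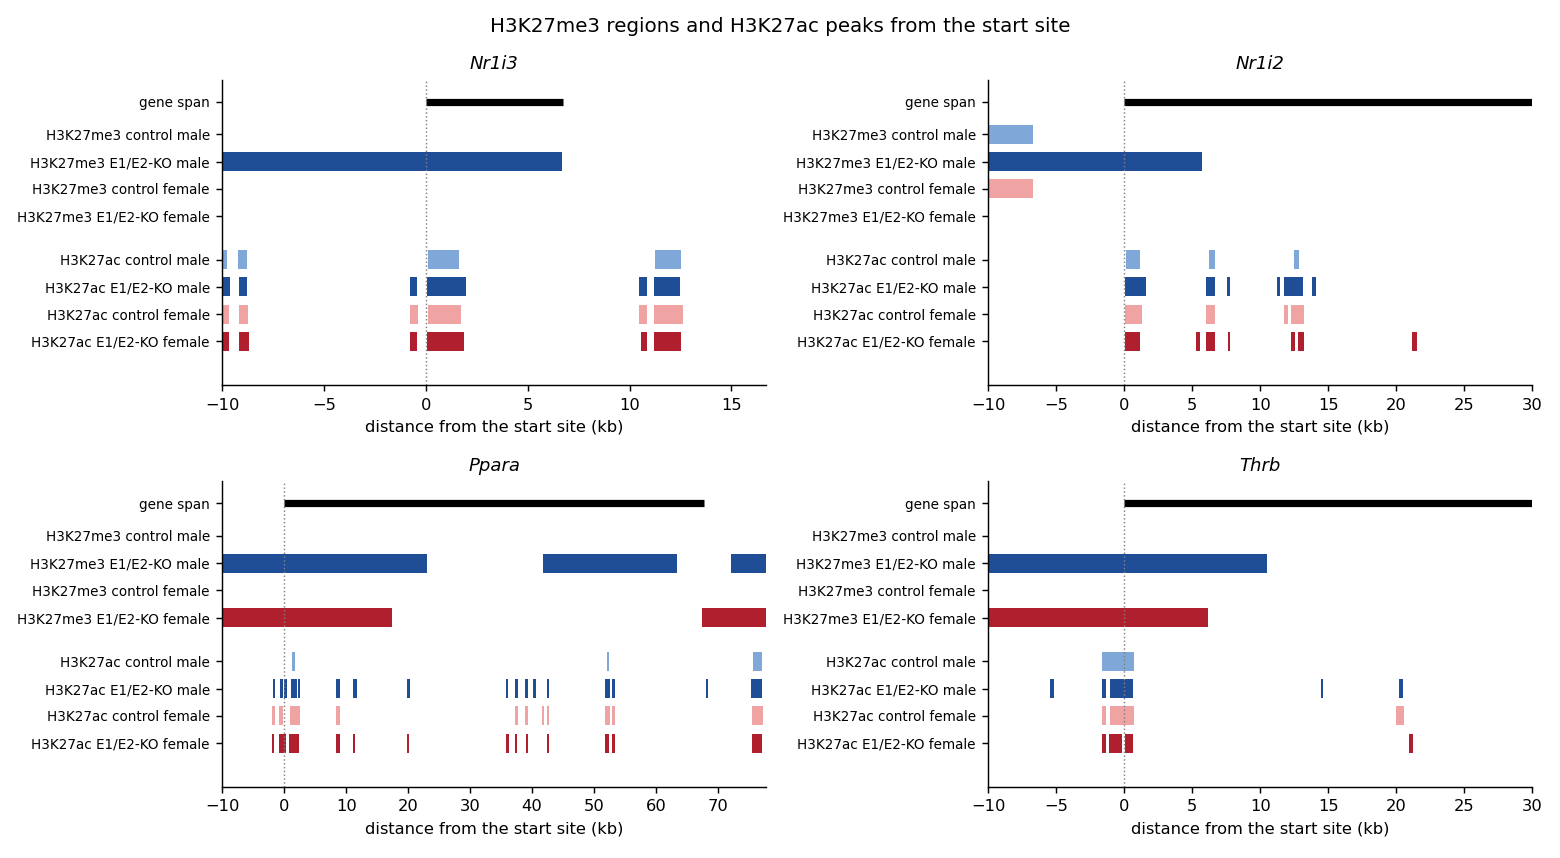
H3K27me3 regions and H3K27ac peaks against the distance in kb from the start sites of Nr1i3, Nr1i2, Ppara and Thrb, with 1 row per mark and pooled list (narrow peaks are drawn wider than scale). Regions cross the start site in E1/E2-KO male liver at all 4 genes and in E1/E2-KO female liver at Ppara and Thrb, while H3K27ac peaks stand within the same stretches.

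Counted over the 10 genes, H3K27me3 coverage rose by at least 25 points in E1/E2-KO male liver at 2 (Nr1i3 and Ppara), where 9.86% of all protein-coding genes rose, and fell at 1 (Pparg), where 6.07% fell. In female liver it rose at 1 (Ppara, against 6.29% of all genes) and fell at none (7.59%). That none fell was fixed in advance, since control female coverage was 12.7% at Pparg and 0% at the other genes. In control males Pparg alone had coverage to lose. With 10 genes, the counts of rises are close to the background. A region newly over the start site was found at 4 of the 10 genes in males (Nr1i2, Nr1i3, Ppara and Thrb, against 9.47% of all genes) and at 2 in females (Ppara and Thrb, against 5.36%), shares above the background with no test of the difference. No start site was lost from a region in either sex (5.02% and 6.65% of all genes). Only the start of Pparg lay inside a region in the control lists, so no other start could be lost. The 8 genes with H3K27ac at the start in every list belong to a group of 9882 such genes, of which 14.9% gained a region over the start in males and 7.35% in females. Among these 8, which leave out Ppara and Rxra, 3 gained one in males (Nr1i2, Nr1i3 and Thrb) and 1 in females (Thrb). Among 10143 genes without H3K27ac at the start in any list, the shares were 4.69% and 3.74%. Between the sexes, coverage was higher in control males at 1 gene (Pparg, against 6.38% of all genes). It was lower at none (5.28%), which was fixed, since no control female value reached 25%. In E1/E2-KO males it was higher at 2 (Nr1i3 and Ppara, against 11% of all genes) and lower at none (4.76%). Only Ppara, at 26.3% in E1/E2-KO females, could have been lower by 25 points there. At the start sites, control lists did not differ between the sexes at any of the 10 (4.62% of all genes in males alone, 5.38% in females alone), and 2 starts, of Nr1i2 and Nr1i3, were in regions of E1/E2-KO males and not of E1/E2-KO females (9.56%), none the other way (4.56%). The E1/E2-KO lists as a whole still covered 750 Mb in males and 707 Mb in females, against 766 Mb and 728 Mb in controls.

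H3K27ac peaks within 10 kb of the 10 genes summed to 58, 111, 104 and 102. The number at least doubled in E1/E2-KO male liver, with a difference of at least 2 peaks, at 4 genes (Ppara, Pparg, Ahr and Thrb), where 19.2% of all genes did so, and fell as much at none (0.273%). In female liver it doubled at 1 gene, Nr1i2, against 3.71% of all genes, and fell as much at none (3.09%). Control males had fewer peaks than control females by the same measure at 3 genes (Ppara, Pparg and Rxra, against 15.6% of all genes) and more at none (0.452%). Between the E1/E2-KO lists of both sexes no gene differed by this measure (4.27% of all genes had more in males and 1.99% fewer). The genes are long, with a median span of 74.3 kb against 15.4 kb over all protein-coding genes and a median of 4, 9, 9 and 7.5 H3K27ac peaks against 1, 2, 2 and 2. The part of gene length in the counts of changed genes was not tested. At the start sites, the peaks of Ppara and Rxra were in the E1/E2-KO male list and not in the control male list (2 genes, against 7.27% of all genes), and none went the other way (0.308%). The same 2 starts set control females apart from control males (6.28%), with none the other way (0.331%). No start of the 10 genes gained or lost H3K27ac in females (2.46% and 1.84% of all genes), and none differed between the E1/E2-KO lists of the sexes (2.14% and 1.74%).

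**Figure D4:**
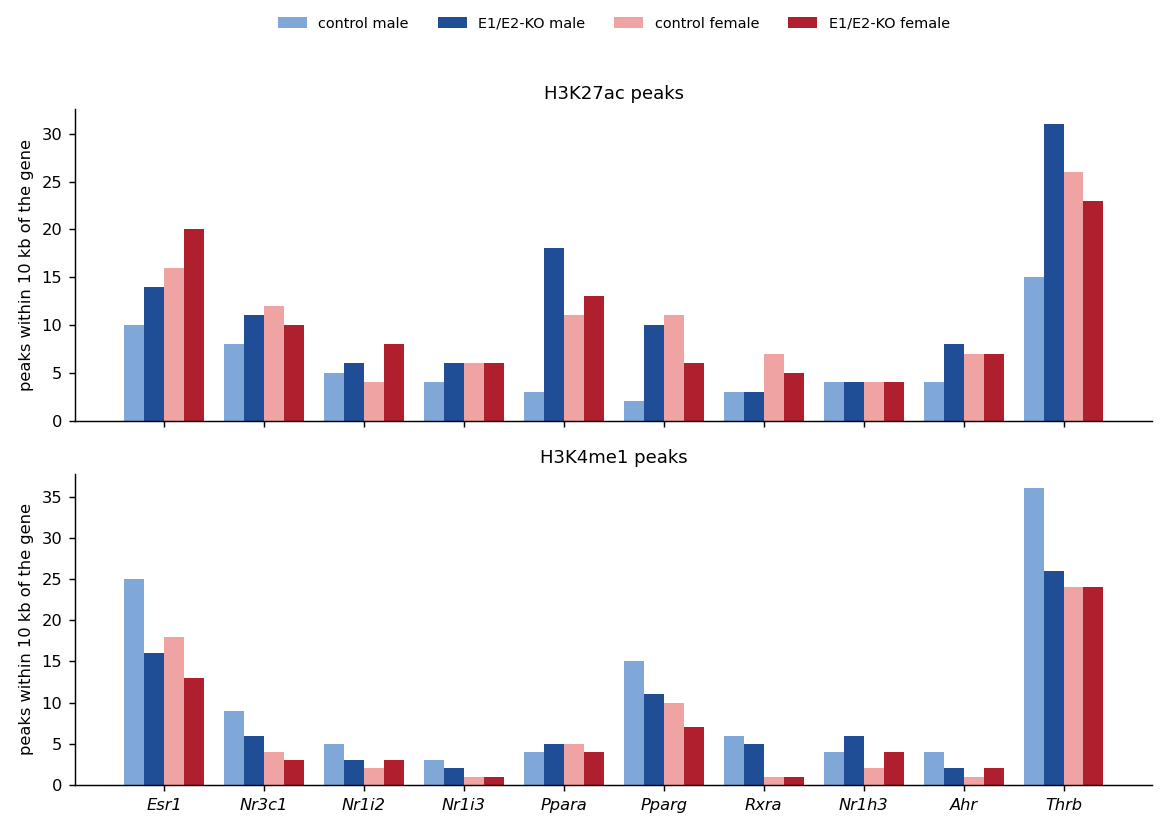
Number of H3K27ac peaks (upper panel) and H3K4me1 peaks (lower panel) within 10 kb of each gene, with 1 bar per pooled list. For H3K27ac the control male bar is the lowest or joint lowest at every gene but Nr1i2, and for H3K4me1 it is the highest or joint highest at every gene but Ppara and Nr1h3.

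The lists differed in length. The control male H3K27ac list held 29359 peaks, against 55930 in E1/E2-KO males, 49702 in control females and 51253 in E1/E2-KO females. Of the H3K27ac peaks near the 10 genes in the male lists together, 65.7% were in the E1/E2-KO list (95% interval 58.2 to 72.4%, Wilson, counting error only), and of all peaks of the same lists 65.6% were. With equal numbers of the widest peaks taken from both lists, the share at the 10 genes was 46.8%. The E1/E2-KO list then had fewer peaks there than the control list (51 against 58). In female liver the share was 49.5% (42.8 to 56.3%), beside 50.8% for the whole lists. The male share at these genes was close to that of the lists as a whole, and the part of list length in the sums was not tested. By site, 43 of 151 H3K27ac sites near the 10 genes were in all 4 lists, 21 in all but control male liver and 22 in E1/E2-KO male liver alone, against 4 in control male liver alone. These are 28.5%, 13.9%, 14.6% and 2.65% of the sites, and over all 73144 sites of the same lists the shares were 30.1%, 13.4%, 14.9% and 2.14%.

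H3K4me1 peaks summed to 111, 82, 68 and 62, and here control male liver had the most. In male liver 42.5% of the peaks (35.7 to 49.5%) were in the E1/E2-KO list, where the whole lists gave 49.3%, and in female liver 47.7% (39.3 to 56.2%), where they gave 48.4%. Peaks in one male list with no overlapping peak in the other were gained in 20 cases and lost in 44, so that 31.2% of the changed peaks were gained (21.2 to 43.4%), and the 47.5% of the whole lists lies outside this interval, which covers counting error only. Esr1 (2 gained, 11 lost) and Thrb (5 gained, 14 lost), the longest of the genes, had the largest falls in number. More peaks were gained than lost at Ppara (2 and 1) and Nr1h3 (3 and 1). Without Esr1 and Thrb, 44.4% of all peaks were in the E1/E2-KO list. The share of gained peaks was not recomputed without them, but most of the 44 lost peaks lay at Esr1 and Thrb. The distance of that share from the whole lists therefore leans on these 2 genes. Counted by gene, the number fell at least 2-fold in E1/E2-KO males at 1 (Ahr, from 4 to 2, against 6.29% of all genes) and rose as much at none (4.99%). In females it rose at 1 (Nr1h3, from 2 to 4, against 3.74%) and fell at none (8.15%). Control males had at least 2-fold more H3K4me1 peaks than control females at 6 genes (Nr3c1, Nr1i2, Nr1i3, Rxra, Nr1h3 and Ahr), against 11.2% of all protein-coding genes, and as many fewer at none (1.53%). E1/E2-KO males exceeded E1/E2-KO females in this way at 2, Nr3c1 and Rxra (14.4%), with none the other way (1.65%). Of the summed peaks of the control lists 62% (54.7 to 68.8%) were male, and of the whole lists 56%. By site, 29 of 146 H3K4me1 sites near the 10 genes were in all 4 lists (19.9%, against 28.4% of all 97447 sites). Control male liver alone had 35 (24%, against 13.6%) and E1/E2-KO male liver alone 11 (7.53%, against 12.4%). These differences were not tested. H3K4me1 lay within 1 kb of the start site at 4, 3, 2 and 2 of the 10 genes. The shares of all protein-coding genes were 47.1%, 45.7%, 39.8% and 36.2%. Those of the 10 with a peak were Nr1i2, Nr1i3, Pparg and Nr1h3 in control males and Nr1i2, Pparg and Nr1h3 in E1/E2-KO males. In females they were Pparg and Nr1h3 in controls and Nr1i2 and Ahr in E1/E2-KO liver. The first start of Nr1h3, used here, lies beside the start of Acp2. At its coding starts, 7.68 to 7.95 kb further in, H3K4me1 peaks numbered 1, 0, 0 and 0. The Nr1h3 calls in E1/E2-KO males and control females therefore rest on the first start alone. The male genotypes thus differed at 1 start lost (Nr1i3, against 7.76% of all genes) and none gained (6.42%), and the female genotypes at 2 gained (5.69%) and 2 lost (9.3%). Control males had the mark at 2 starts where control females did not (10%), with none the other way (2.77%). E1/E2-KO males had it at 2 starts where E1/E2-KO females did not (12.8%), and the reverse held at 1 (3.22%).

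**Figure D5:**
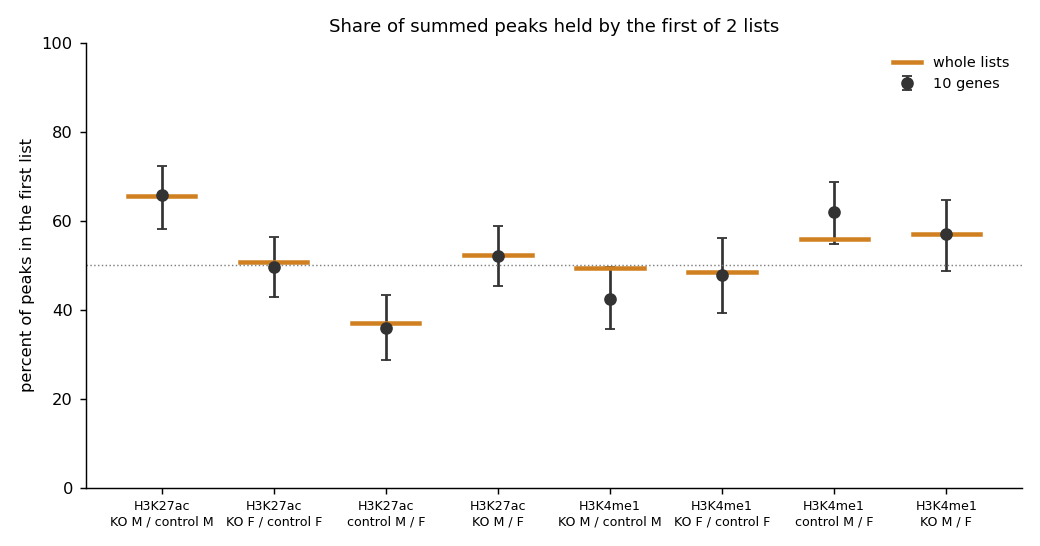
Percent of the peaks of 2 pooled lists together that belong to the first list named (M, male and F, female), for peaks within 10 kb of the 10 genes (points, with Wilson 95% intervals for counting error) and for the whole lists (lines). For these shares of all peaks, as distinct from shares of gained peaks, the whole-list value lies inside the interval of the 10 genes in all 8 comparisons.

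Genes that work with these receptors were counted from lists, beside the shares of all genes given above (9.86% rose and 6.07% fell in males, 6.29% and 7.59% in females). Of 39 other nuclear receptor genes, coverage rose by at least 25 points at 9 and fell at 4 in males, and rose at 6 and fell at 2 in females. Nr0b2, which encodes the small heterodimer partner that represses other receptors, went from 0% to 100% in both sexes. Hnf4a, the receptor that maintains hepatocyte identity, went from 0% to 89.1% in males and from 0% to 71% in females. Of 20 partners and cofactors, 1 rose and none fell in males, and none rose and 1 fell in females. Of 51 target genes of the receptors, 14 rose and 6 fell in males, and 8 rose and 3 fell in females. No list was tested against the other genes. Targets that rose from 0% to 100% in both sexes were Cyp3a13, a cytochrome P450 induced through Nr1i2, Cyp1a1, the classical target of Ahr, and G6pc, the last enzyme of glucose release and a target of the glucocorticoid receptor. Dio1, the deiodinase regulated by thyroid hormone, rose from 0% to 100% in males and to 87.7% in females. In the other direction, Lpl, the lipoprotein lipase controlled by Pparg, fell from 100% to 10.4% in males and from 100% to 0% in females. Cyp2b10, the main target of Nr1i3, fell from 100% to 0% in males and from 37.2% to 0% in females. Its H3K27ac peaks numbered 0, 5, 8 and 5. Hnf4a and Cyp2b10 were named after their values had been seen.

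Markers of liver cell types were read from the same lists. An H3K27ac peak lay at the start of 4, 6, 6 and 6 of 8 hepatocyte markers, of 0, 2, 1 and 3 of 5 endothelial markers, of 1, 1, 2 and 2 of 5 stellate cell markers, of 1 of 4 cholangiocyte markers in each group, of 0 of 5 Kupffer cell markers in each group and of 0, 0, 1 and 0 of 3 lymphocyte markers. H3K27me3 coverage rose at 3 hepatocyte markers in males and 2 in females and fell at 3 endothelial markers in each sex. It also fell at 1 lymphocyte marker in males and at 1 Kupffer cell marker in females, and rose at 1 cholangiocyte marker in females. The shares of all genes that rose or fell are those given above. H3K27ac peaks within 10 kb at least doubled in males, by at least 2, at 5 hepatocyte, 5 endothelial and 1 stellate cell marker (19.2% of all genes). They did so at no Kupffer cell, cholangiocyte or lymphocyte marker. In females they doubled at 2 endothelial and 1 cholangiocyte marker (3.71%) and fell as much at 1 hepatocyte marker (3.09%). The part of cell composition in the values of the 10 genes was not tested.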

How the data were processed

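Peaks of H3K27ac and H3K4me1 and regions of H3K27me3 were used as the authors deposited them, as chromosome, start, end and name (mm9), with no score, signal or read count. Per the paper's methods and the submitters' processing notes, reads of a group were concatenated, mapped with Bowtie2 (version 2.3.2) and searched with SICER (version 1.1, window 400 bp) or MACS2 (version 2.1.1). The depth is not given in the sources used here. The other deposited values in these lists are positions, which were read as counted from 0 and printed from 1, and 1 base was added to SICER ends.

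Gene spans came from GENCODE M1 on NCBIM37, which is mm9. A peak was counted for each gene whose span, widened by 10 kb on both sides, it overlapped by at least 1 bp. A change was counted from 25 percentage points of coverage, or from 2-fold and 2 peaks. The same count over all 22367 protein-coding genes gives the background. Peaks of the 4 lists of a mark that overlap were merged into sites. Shares have Wilson 95% intervals, which treat neighbouring peaks as independent. The functions were tested on simulated regions.

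The genes and lists were chosen with earlier results of these data known. All 10 genes are named. Of the other lists, up to 6 genes with the largest change in coverage of at least 50 points are named, ties being ordered by the change in the other sex. Sequences shown are promoters whose marks differ between groups and centres of sites (the widest outside exons with the stated pattern), with the patterns chosen after the values had been seen. Nr3c1 is shown without sequence. Alternatives were other gene windows, thresholds, merged peaks, the widest 50% of each list and equal list lengths. Programs were Python 3.11.15, SciPy 1.17.1, NumPy 2.4.6 and matplotlib 3.10.9.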

Additional observations from a re-analysis of the deposited data

Results flagged for a closer look

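At 3 genes the number of peaks within 10 kb moved in opposite directions in E1/E2-KO liver of the 2 sexes, with a 2-fold change in at least one of them. H3K27ac peaks of Pparg changed by 8 in males (from 2 to 10) and by -5 in females (from 11 to 6). H3K27ac peaks of Thrb changed by 16 in males (from 15 to 31) and by -3 in females (from 26 to 23). H3K4me1 peaks of Ahr changed by -2 in males (from 4 to 2) and by 1 in females (from 1 to 2). With 1 pooled list per group the difference between the sexes was not tested, and the male H3K27ac changes start from the shortest list. How many of all protein-coding genes meet this rule was not counted, so the 3 genes have no background beside them.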

How the results depend on the processing

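Of 56 recomputed values of the main counts and shares, 48 stayed within 1.5 times the count or within the interval of the share and 8 moved. Around the start site (5 kb on both sides) in place of the span, changed genes numbered 3 in female liver (Ppara, Ahr and Thrb) in place of 1, and 0 between control males and females in place of 1, since Pparg is covered there in every list. The male count was 4 there in place of 3, with Nr1i2 and Thrb in and Pparg out. With a threshold of 10 points the male count was 5. With 50 points the female count was 0 and that between E1/E2-KO males and females 1 in place of 2. With the widest 50% of regions the latter was 0, and the 20 kb region over Nr1i3 was no longer in the list, so that the male count was 2. The H3K27ac share in males went from 65.7% to 46.8% with equal list lengths. Its direction turned, since the E1/E2-KO list then held 51 peaks near the 10 genes and the control list 58. The H3K4me1 share in males was 50% within 5 kb of the start site, from 24 peaks. Leaving out Esr1 and Thrb was chosen after seeing the data and moved no share out of its interval. An overlap of 50% bears on gained and lost peaks only, and the gained H3K27ac share in males was then 84.5% in place of 86.1% (62 gained and 10 lost, where the whole lists gave 91.5% with an overlap of 1 bp). No paired analysis was possible because the livers of a group were pooled into 1 list, and for the same reason no liver could be left out. Unknown depth limits every absence of a peak.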
